A study of Mus musculus with 12 samples.

Results

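Asparagine synthetase and 8 amino acid transporter genes of the plasma membrane were followed in cultured mouse fibroblasts given doxycycline with and without the acetyltransferases CBP and p300. The set was chosen by name, as the rows of the count table whose symbol is Asns, Slc7a1, Slc7a5, Slc3a2, Slc1a4, Slc1a5, Slc38a2, Slc38a1 or Slc6a9. All 9 were present among 12637 genes, and all 9 passed the filter on low counts, as did every other gene of the table.

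The cells were immortalised mouse embryonic fibroblasts (MEFs), a connective tissue cell grown from embryos. The 4 groups held 3 libraries each and were CBP/p300 KO cells with doxycycline (KO Dox), CBP/p300 KO cells with the solvent DMSO (KO DMSO), wild-type cells with doxycycline (WT Dox) and wild-type cells with DMSO (WT DMSO). Per the labels, KO cells carried floxed alleles of Crebbp and Ep300, the genes of CBP and p300, with a stably expressed Cre-ERT2, a Cre recombinase switched on by 4-OHT (4-hydroxytamoxifen). The sources used here do not say whether WT cells carried Cre-ERT2 or were given 4-OHT, nor how many clones were used. Doxycycline was given at 30 µg/ml for 24 hours. The labels do not say that the libraries of a group were grown as separate cultures, and the p-values therefore rest on a spread between libraries that may be technical.

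Amino acid transporters of the solute carrier (SLC) families move amino acids across the cell membrane, and asparagine synthetase makes asparagine from aspartate and glutamine. When amino acids run short or translation is disturbed, phosphorylation of the initiation factor eIF2 favours translation of the transcription factor ATF4, which switches on genes of amino acid synthesis and uptake. Doxycycline also blocks the ribosomes of mitochondria, a disturbance that is known to engage ATF4 in mammalian cells. CBP and p300 are transcriptional coactivators that acetylate histones and other proteins.

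Each library held 44476039 to 52173143 reads counted in genes. Crebbp was detected in every library, at 53.7 to 57.0 CPM (read counts scaled to library size) in KO Dox, 58.9 to 60.5 in KO DMSO, 60.4 to 63.5 in WT Dox and 65.8 to 67.8 in WT DMSO. Ep300 had 111 to 115, 120.0 to 128, 178 to 196 and 192 to 200.4 CPM in the same order of groups. Reads from undeleted exons enter these counts, so the deletion itself was not checked. Of 10 fibroblast markers 9 were measured, with a summed level of 3400 to 3430 CPM in KO Dox, 2930 to 3060 in KO DMSO, 12700 to 13200 in WT Dox and 12800 in each WT DMSO library. None of 5 endothelial and none of 6 epithelial markers was among the genes analysed, and of 6 macrophage markers Ptprc, Adgre1 and Tyrobp were not. The other 3 macrophage markers summed to 31.4 to 34.2 CPM in KO Dox, 35.1 to 37.2 in KO DMSO, 12.6 to 13.1 in WT Dox and 18.4 to 19.4 in WT DMSO. The 4 measured of 5 neural markers summed to 29.9 to 31.2 CPM in KO Dox, 31.3 to 32.9 in KO DMSO, 66.7 to 70.1 in WT Dox and 76.9 to 79.8 in WT DMSO, and the 1 measured of 5 skeletal muscle markers had 1.36 to 7.48 CPM over all libraries. The part of these marker and library differences in the results was not tested. In such bulk libraries, fewer cells of a type and less RNA per cell cannot be told apart.

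Some libraries stood apart. Unmapped reads made up 7.63 and 6.65% of all reads in KO DMSO replicates 1 and 2 and 1.85 to 2.09% in the other 10. Processed pseudogenes, averaged over 256 such genes, lay lowest in KO DMSO replicate 1, at -0.75 on the log2 scale from their mean over all libraries, and at -0.21 to -0.26 in the WT DMSO libraries, and highest in WT Dox, at 0.45 to 0.53. A chi-square statistic per gene between libraries, which is near 1 for sampling noise alone, was 8.11 and 6.31 for WT Dox replicate 1 against replicates 2 and 3, and 1.33 to 3.76 for the other 10 pairs within groups. No call of a member was lost without any of these libraries, and the 3 calls of members that appeared without 1 library are given beside the results. The pseudogene difference between WT Dox and WT DMSO covered all libraries of both groups. Leaving out single libraries therefore cannot separate it from doxycycline.

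Doxycycline raised 8 of the 9 genes in WT fibroblasts and lowered Slc38a2. Asns, Slc7a1, Slc7a5, Slc1a4 and Slc6a9 rose at least 2-fold, while Slc3a2, Slc1a5 and Slc38a1 rose less. Slc7a1, the smallest of these 2-fold rises, ranked 163 of all 12637 genes by log2 fold change. The WT Dox and WT DMSO libraries did not overlap for any of the 9, as was the case for 57.5% of all genes. Over all genes tested 23.9% were called higher and 29.2% lower in the same comparison. The median log2 fold change was 1.02 over the 9 genes and -0.02 over all 12637.

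Asns (ENSMUSG00000029752, chromosome 6, positions 7675169 to 7693254 of GRCm38, minus strand) had 568, 593 and 581 CPM in the 3 WT Dox libraries, against 273, 281 and 266 CPM in WT DMSO. Every WT Dox library lay above every WT DMSO library, and the gap was many times the spread within each group. In log2 terms the rise was 1.09 ± 0.0238 (adjusted p = 8.1e-21 by edgeR; SE, n = 3 and 3). Asparagine synthetase is the only enzyme of the set, and its gene is a long-known target of ATF4.

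The promoter of Asns is shown because it holds the letters of a composite site of C/EBP and ATF factors, and that of Slc1a4 because it was the only other promoter of the set with a match. The promoter of Slc38a2 is shown as that of the gene that fell in WT cells. The sequences are from RefSeq (GRCm38.p6), 5′ to 3′ on the strand of the gene, from 250 bases before the RefSeq start to its first 10 bases. Capitals mark the match.
Asns, chr6:7693200-7693459, minus strand: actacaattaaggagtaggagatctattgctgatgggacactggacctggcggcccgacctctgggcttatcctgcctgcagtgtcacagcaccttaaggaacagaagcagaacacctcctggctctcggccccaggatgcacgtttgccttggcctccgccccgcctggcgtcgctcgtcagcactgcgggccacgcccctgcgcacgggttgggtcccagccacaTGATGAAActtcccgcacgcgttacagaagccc
Slc1a4, chr11:20332704-20332963, minus strand: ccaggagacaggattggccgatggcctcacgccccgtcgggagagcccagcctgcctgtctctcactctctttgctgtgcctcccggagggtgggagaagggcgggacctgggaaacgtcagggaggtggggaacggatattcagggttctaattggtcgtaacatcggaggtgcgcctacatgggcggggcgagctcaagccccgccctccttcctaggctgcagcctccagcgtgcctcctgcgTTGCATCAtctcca
Slc38a2, chr15:96699719-96699978, minus strand: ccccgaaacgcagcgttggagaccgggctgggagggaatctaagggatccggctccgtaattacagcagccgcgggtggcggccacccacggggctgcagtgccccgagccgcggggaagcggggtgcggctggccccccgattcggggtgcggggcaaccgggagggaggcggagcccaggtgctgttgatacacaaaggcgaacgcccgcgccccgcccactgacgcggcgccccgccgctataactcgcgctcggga

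The letters searched were TGATGNAA, read as TTNCATCA on the other strand, and CACGTG, the E-box, which reads the same on both strands. The letters TG at the end of CACGTG can also begin TGATGNAA, so matches may overlap. Windows of 300 bases were found for 6 of the 9 genes, with 9 start sites among them. In Asns the match to TGATGNAA began 23 bases before the start. In Slc1a4 it was on the other strand, began 4 bases before the start and ran across it into the transcript. There was none in either window of Slc7a1, in the 3 of Slc6a9 or in those of Slc3a2 and Slc38a2. CACGTG was in none of the 9 windows. Among all 32851 RefSeq windows, 3.97% held TGATGNAA on either strand and 7.15% held the E-box. A match is a description of letters, and 7 windows without a match say nothing of sites elsewhere.

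The cationic and large neutral amino acid transporters rose with Asns. Slc7a1, which carries arginine and lysine (chromosome 5, positions 148327410 to 148399904), had 224, 211 and 215 CPM in WT Dox, against 105, 106 and 110.0 CPM in WT DMSO, or 1.02 ± 0.0266 as log2 fold change (adjusted p = 1.9e-19 by edgeR; SE, n = 3 and 3). Slc7a5, the light chain of the exchanger for leucine and other large neutral amino acids (chromosome 8, positions 121881150 to 121907694), had 235, 234 and 232 CPM in WT Dox, against 106, 107 and 105 CPM in WT DMSO, or 1.14 ± 0.0278 (adjusted p = 6.5e-20). For both genes the WT Dox libraries lay at about the same height and far above all WT DMSO libraries.

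Slc3a2, the glycoprotein heavy chain that brings Slc7a5 and several other light chains to the cell surface (chromosome 19, positions 8706882 to 8723369), rose less. It had 279, 289 and 292 CPM in WT Dox, against 189, 194 and 188 CPM in WT DMSO, or 0.59 ± 0.0229 as log2 fold change (adjusted p = 4.5e-16 by edgeR; SE, n = 3 and 3). The groups did not overlap.

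The neutral amino acid exchangers of the SLC1 family differed in the size of their rise. Slc1a4, which carries alanine, serine, cysteine and threonine (chromosome 11, positions 20302180 to 20332713), had 100.2, 98.3 and 97.6 CPM in WT Dox, against 41.3, 42.7 and 39.3 CPM in WT DMSO, the largest fold change of the 9 at 1.26 ± 0.0341 (SE, n = 3 and 3; adjusted p = 3.6e-19, edgeR). Slc1a5, which also carries glutamine (chromosome 7, positions 16781340 to 16798274), had 153, 157 and 159 CPM in WT Dox, against 106, 103 and 105 CPM in WT DMSO, or 0.58 ± 0.0269 (adjusted p = 1.6e-14). Neither gene had a WT Dox library within the range of WT DMSO.

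The sodium-coupled neutral amino acid transporters moved in opposite directions in WT cells. Slc38a1, a glutamine transporter (chromosome 15, positions 96571418 to 96642913), had 213, 202 and 205 CPM in WT Dox, against 149, 155 and 154 CPM in WT DMSO, or 0.44 ± 0.0269 as log2 fold change (adjusted p = 3.5e-12 by edgeR; SE, n = 3 and 3). Slc38a2, on the same chromosome (positions 96687392 to 96699730), carries alanine, glutamine and other small neutral amino acids and is known from other studies to respond to amino acid shortage. It had 518, 486 and 488 CPM in WT Dox, against 542, 537 and 550.5 CPM in WT DMSO, a fall of 0.13 on the log2 scale with an SE of 0.0232 (adjusted p = 6.6e-05). The fall was small, WT Dox replicate 1 lay closest to the WT DMSO libraries, and without it the log2 fold change was -0.16.

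Slc6a9, a transporter that takes up glycine (chromosome 4, positions 117834506 to 117875198), was the lowest gene of the set and rose at least 2-fold. It had 48.4, 47.2 and 46.1 CPM in WT Dox, against 20.8, 21.1 and 21.2 CPM in WT DMSO, or 1.17 ± 0.0356 as log2 fold change (adjusted p = 4.1e-18 by edgeR; SE, n = 3 and 3). Its exons share 1429 bases with Ccdc24, 511 with Gm17114 and 46 with B4galt2, all on the opposite strand. The sources used here do not give the strand of counting, so it is not known to which gene reads there were given. Ambiguous reads stayed out of the counts of genes, so reads there may also be missing from Slc6a9. The other 8 genes share no annotated exon base with another gene.

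**Figure D1:**
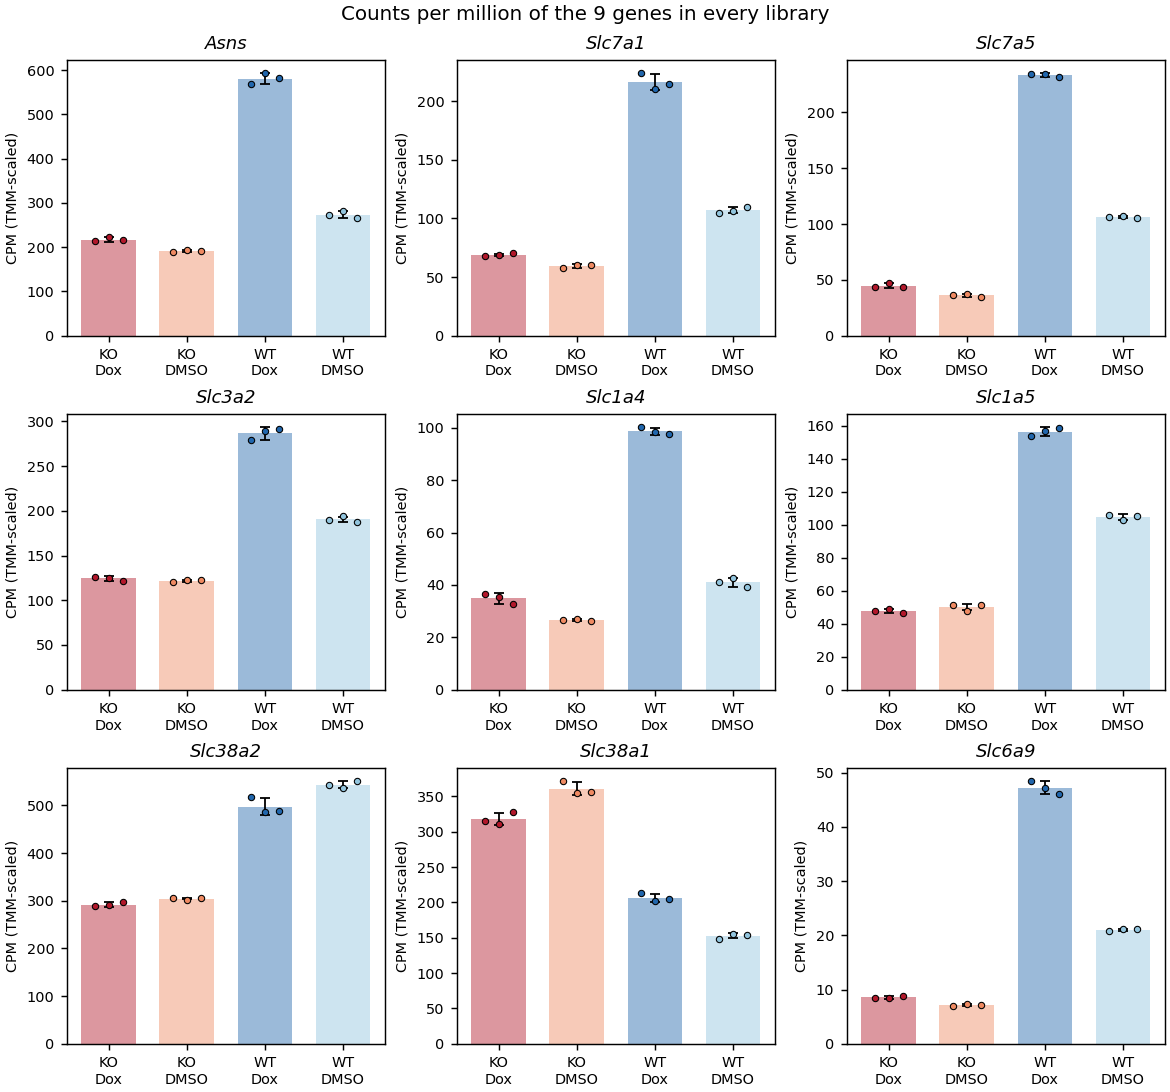
CPM (y axis, from 0) of the 9 genes in KO Dox, KO DMSO, WT Dox and WT DMSO, with points for the 3 libraries, bars for their mean and error bars for the SD. Doxycycline lifted 8 genes in WT cells, with Asns at 568 to 593 CPM in WT Dox against 266 to 281 in WT DMSO, while Asns is at 214 to 222 CPM in KO Dox against 189 to 193 in KO DMSO.

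In KO cells the same dose changed these genes little. Asns, Slc7a1, Slc7a5, Slc1a4 and Slc6a9, the 5 genes that rose at least 2-fold in WT cells, rose by 0.18 to 0.39 on the log2 scale. Slc38a1 fell, and Slc3a2, Slc1a5 and Slc38a2 did not pass the test. None of the 9 changed 2-fold, and Slc1a4, with the largest rise, ranked 214 of all 12637 genes by log2 fold change. The KO Dox and KO DMSO libraries did not overlap for 7 of the 9 genes and for 38.3% of all genes. Over all genes 11.6% were called higher and 10.1% lower with doxycycline in KO cells, and the median log2 fold change was 0.18 over the 9 genes and 0.00 over all genes.

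Asns had 214, 222 and 215 CPM in KO Dox, against 189, 193 and 191 CPM in KO DMSO, or 0.18 ± 0.0245 as log2 fold change (adjusted p = 5.2e-06 by edgeR; SE, n = 3 and 3). The groups did not overlap, yet all KO Dox libraries lay below the lowest WT DMSO library. The highest fold change of the set was that of Slc1a4, with 36.4, 35.4 and 32.6 CPM in KO Dox, against 26.7, 27.0 and 26.3 CPM in KO DMSO, at 0.39 ± 0.0399 (adjusted p = 1.4e-07). Slc7a5 had 43.6, 47.2 and 43.2 CPM in KO Dox, against 36.6, 37.0 and 34.3 CPM in KO DMSO, or 0.31 ± 0.0348 (adjusted p = 4.3e-07). Like Asns, both stayed below their own level in WT DMSO.

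Slc7a1 had 68.2, 68.6 and 70.2 CPM in KO Dox, against 57.8, 60.3 and 60.4 CPM in KO DMSO, or 0.21 ± 0.0299 as log2 fold change (adjusted p = 1.2e-05 by edgeR; SE, n = 3 and 3). Slc6a9 had 8.46, 8.39 and 8.86 CPM in KO Dox, against 6.87, 7.30 and 7.22 CPM in KO DMSO, or 0.27 ± 0.0543 (adjusted p = 9.6e-04). Both genes had KO Dox libraries above all KO DMSO libraries. For Slc6a9 these levels rest on 445 to 477 reads per library in KO Dox and 342 to 387 in KO DMSO.

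Slc38a1 went the other way in KO cells, with 315, 311 and 328 CPM in KO Dox, against 371, 355 and 356 CPM in KO DMSO, or -0.18 ± 0.0255 as log2 fold change (adjusted p = 1.1e-05 by edgeR; SE, n = 3 and 3). All KO Dox libraries lay below all KO DMSO libraries. Slc38a2 had 288, 291 and 297 CPM in KO Dox, against 305, 302 and 305 CPM in KO DMSO, at -0.06 ± 0.0238 with an adjusted p of 0.081 (edgeR). Its groups did not overlap although it did not pass, and it did pass without WT Dox replicate 1, a library outside this comparison (-0.06, adjusted p = 0.014), without TMM scaling (-0.07, adjusted p = 0.038) and with only the KO groups in the fit (-0.06, adjusted p = 0.041), while the highest adjusted p over 22 alternatives was 0.36.

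Slc3a2 had 127, 125 and 122 CPM in KO Dox, against 121, 123 and 122 CPM in KO DMSO, at 0.03 ± 0.0242 (adjusted p = 0.42, edgeR; 95% interval -0.02 to 0.08). Slc1a5 had 47.9, 48.6 and 46.2 CPM in KO Dox, against 51.5, 47.8 and 51.1 CPM in KO DMSO, at -0.08 ± 0.0316 (adjusted p = 0.091; 95% interval -0.14 to -0.01, not adjusted over genes). The groups overlapped for both genes. Without KO DMSO replicate 2, the lowest of its group, Slc1a5 was at -0.11 and passed (adjusted p = 0.029), and its highest adjusted p over the alternatives was 0.41.

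**Figure D2:**
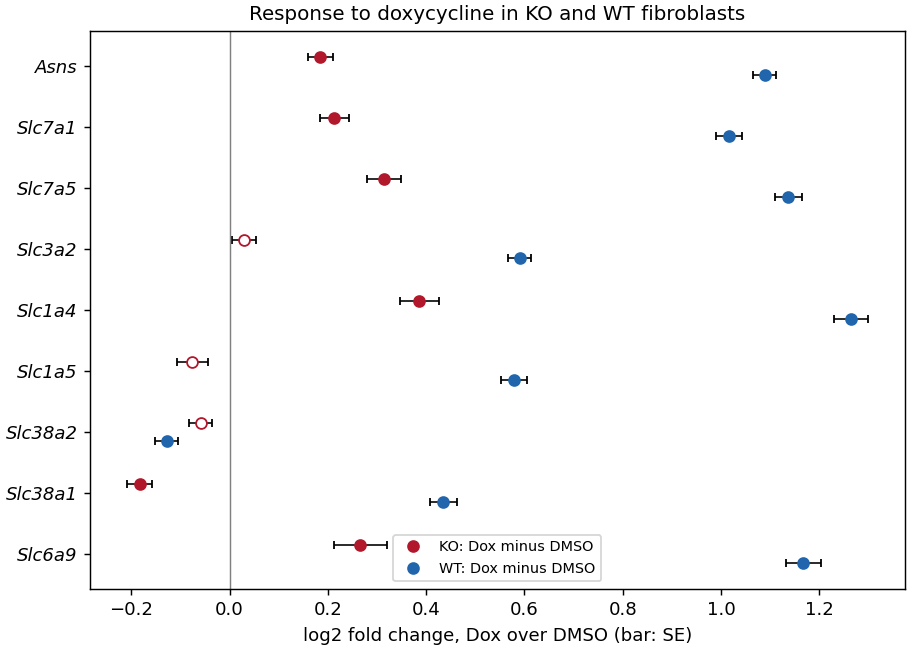
Log2 fold change of doxycycline over DMSO (x axis) for each gene in KO cells (red) and WT cells (blue), with the SE as error bars and hollow points where the adjusted p was not under 0.05. The KO points lie between -0.18 and 0.39, and the WT points reach 1.26.

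The difference between the 2 responses was tested as an interaction, the log2 response of KO cells minus that of WT cells. It was below 0 and passed for 8 of the 9 genes, and it did not pass for Slc38a2. Over all genes 14.3% were called lower and 18.2% higher in the interaction. The median was -0.80 over the 9 genes and 0.01 over all genes.

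The most negative interaction was that of Asns at -0.90 ± 0.0340 (SE, n = 3 in each of 4 groups; adjusted p = 1.2e-15, edgeR), and Slc6a9 was also at -0.90, with an SE of 0.0655. Slc1a4 was at -0.88 ± 0.0528, Slc7a5 at -0.82 ± 0.0446 and Slc7a1 at -0.80 ± 0.0400. These are the 5 genes with the large WT responses, and their KO response was 17.0% of the WT response for Asns, 22.8% for Slc6a9, 27.6% for Slc7a5 and 30.5% for Slc1a4, as ratios of log2 fold changes, with Slc7a1 between Asns and Slc6a9. Slc1a5 at -0.65 ± 0.0415, Slc38a1 at -0.62 ± 0.0371 and Slc3a2 at -0.56 ± 0.0333 followed. For Slc1a5 and Slc38a1 the fitted responses had opposite signs in KO and WT cells, although that of Slc1a5 in KO cells did not pass.

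Slc38a2 was at 0.07 ± 0.0332 in the interaction (adjusted p = 0.12, edgeR; 95% interval 0.00 to 0.13), so a difference of the size seen in the other genes lay outside the interval. Without WT Dox replicate 1 it was at 0.10 and passed (adjusted p = 0.0035), and its highest adjusted p over 21 alternatives was 0.40. The other 8 calls held in all 21 alternatives run for the interaction, with Asns at -0.94 to -0.88.

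Resting levels also differed by genotype. With DMSO 8 of the 9 genes were lower in KO than in WT cells and Slc38a1 was higher. The libraries of the groups did not overlap for any of the 9, as for 89.8% of all genes, so this separation is no feature of the 9. Over all genes 44.3% were called lower and 45.1% higher in this comparison, so that being called in itself sets no gene apart. The median log2 fold change was -0.84 over the 9 genes and 0.02 over all genes.

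Slc7a5 averaged 36.0 ± 1.49 CPM in KO DMSO and 106 ± 1.10 CPM in WT DMSO (SD, n = 3 each), or -1.56 ± 0.0323 (SE) as log2 fold change, with an adjusted p of 2.0e-23 by edgeR. Slc6a9 averaged 7.13 ± 0.230 CPM in KO DMSO (SD, n = 3), against 20.8 to 21.2 CPM in WT DMSO, also at -1.56, with an SE of 0.0471. These transporters of large neutral amino acids and of glycine were the furthest below WT. Slc1a5 averaged 50.1 ± 2.05 CPM in KO DMSO and 105 ± 1.63 CPM in WT DMSO (SD, n = 3 each), at -1.06 ± 0.0295 (adjusted p = 9.1e-21, edgeR).

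Slc7a1 (59.5 ± 1.46 CPM in KO DMSO and 107 ± 2.70 CPM in WT DMSO) and Slc38a2 (304 ± 1.64 CPM in KO DMSO and 543 ± 6.93 CPM in WT DMSO; SD, n = 3 each) lay at -0.85 ± 0.0291 and -0.84 ± 0.0236. Slc3a2, Slc1a4 and Asns were closer to WT, at -0.64 ± 0.0238, -0.62 ± 0.0395 and -0.52 ± 0.0244. Asns, at 191 ± 2.05 CPM in KO DMSO and 273 ± 7.66 CPM in WT DMSO (SD, n = 3 each), thus had the smallest resting difference of the 9 by fold. Slc38a1 was the exception in direction, at 361 ± 8.96 CPM in KO DMSO and 153 ± 3.42 CPM in WT DMSO (SD, n = 3 each), or 1.24 ± 0.0266 (adjusted p = 4.1e-23, edgeR).

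With doxycycline the gap between the genotypes was wider for 7 of the 8 lower genes, as follows from the interaction, and at least 2-fold for 7 of the 9 genes. Slc3a2, the smallest of these 2-fold gaps, ranked 10902 of all 12637 genes, counted from the highest log2 fold change down. Slc6a9 averaged 8.57 ± 0.253 CPM in KO Dox and 47.2 ± 1.14 CPM in WT Dox (SD, n = 3 each), or -2.46 ± 0.0405 (SE) as log2 fold change, with an adjusted p of 2.1e-25 by edgeR. Slc7a5 averaged 44.7 ± 2.21 CPM in KO Dox and 234 ± 1.56 CPM in WT Dox (SD, n = 3 each), at -2.39 ± 0.0302. Asns averaged 217 ± 4.78 CPM in KO Dox and 581 ± 12.1 CPM in WT Dox (SD, n = 3 each), at -1.42 ± 0.0240. All KO Dox libraries lay below all WT DMSO libraries for 8 of the 9 genes, and for 44.6% of all genes.

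Slc1a5, Slc7a1 and Slc3a2 lay at -1.72 ± 0.0289, -1.65 ± 0.0275 and -1.20 ± 0.0234 with doxycycline, and Slc1a4 had a 95% interval of -1.57 to -1.43. Slc38a2 was at -0.77 ± 0.0236, close to its difference with DMSO. Slc38a1 was still higher in KO, at 318 ± 8.88 CPM in KO Dox and 206 ± 5.80 CPM in WT Dox (SD, n = 3 each), but with a smaller log2 fold change of 0.62 ± 0.0261. Over all genes 44.8% were called lower and 45.1% higher in KO Dox than in WT Dox. The comparisons share groups, so their values are given side by side and are not independent.

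Without TMM scaling the median over all genes moved to 0.17 for KO against WT with DMSO and to 0.14 with doxycycline, shifts of over 0.1 on the log2 scale. All 9 genes kept their direction and call in both comparisons then, with Asns at -0.37, Slc7a5 at -1.42 and Slc38a1 at 1.39 with DMSO.

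**Figure D3:**
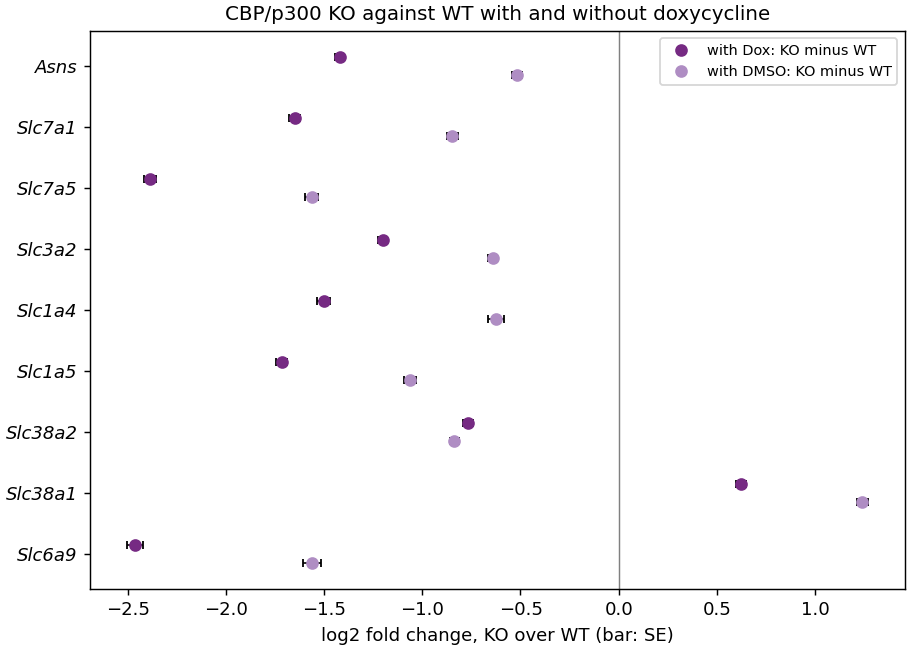
Log2 fold change of KO over WT (x axis) for each gene with doxycycline (dark) and with DMSO (light), with the SE as error bars. Slc38a1 alone lies above 0, at 0.62 with Dox and 1.24 with DMSO, and the lowest points are Slc6a9 and Slc7a5 with Dox.

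Levels of different genes were compared as RPKM, the CPM divided by the annotated exon length in kilobases, with exon lengths from 2735 bases for Asns to 17236 bases for Slc38a1. Annotated exons that the cells do not use lower this level, so the order between genes is approximate. Asns was the highest gene in every group, with an RPKM of 79.3 ± 1.75 in KO Dox, 69.8 ± 0.751 in KO DMSO, 212 ± 4.44 in WT Dox and 99.8 ± 2.80 in WT DMSO (SD, n = 3 each). Slc6a9 was the lowest, at 1.67 ± 0.0492, 1.39 ± 0.0447, 9.19 ± 0.221 and 4.09 ± 0.0408 RPKM in the same order of groups.

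In WT DMSO the level per length fell in the order Asns, Slc38a2, Slc3a2, Slc7a5, Slc1a5, Slc1a4, Slc7a1, Slc38a1 and Slc6a9, and no neighbours overlapped in their libraries. In WT Dox Slc3a2 and Slc7a5 stood above Slc38a2, and the other positions were as in WT DMSO. In KO DMSO Slc38a1 took rank 4, behind Slc38a2, and Slc3a2 at 34.6 ± 0.322 RPKM and Slc38a2 at 34.4 ± 0.185 RPKM (SD, n = 3 each) were the only neighbours in any group whose libraries overlapped. Summed over the 9 genes the level was 204.6 to 209 RPKM in KO Dox, 194 to 195 in KO DMSO, 512 to 519 in WT Dox and 299 to 305 in WT DMSO. This sum is a description and carries no test.

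**Figure D4:**
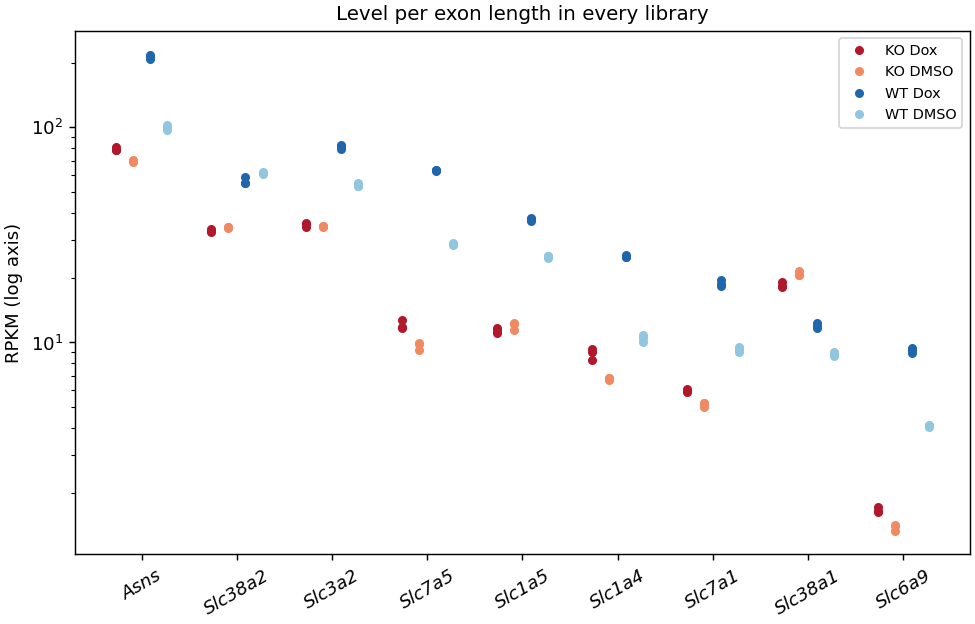
RPKM (y axis, log scale) of each gene in every library, with genes ordered by their WT DMSO mean. Asns is highest in all 4 groups and Slc6a9 lowest, and Slc38a1 is the only gene whose KO points stand above its WT points.

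Ratios within related pairs separated the groups. Slc7a5 works as a dimer with Slc3a2, and the ratio of their RPKM was 0.328, 0.358 and 0.338 in KO Dox, 0.289, 0.286 and 0.267 in KO DMSO, 0.801, 0.771 and 0.756 in WT Dox and 0.534, 0.527 and 0.532 in WT DMSO. No libraries of different groups overlapped, and the light chain was lower relative to the heavy chain in KO cells and higher with doxycycline. Among single genes, the groups also did not overlap for 38.3% with doxycycline in KO cells and 57.5% in WT cells. Between KO DMSO and WT DMSO this share was 89.8%. Ratios of other gene pairs were not examined. This ratio and the next restate the fold changes of their genes and are no further evidence. The log2 ratio differed by 0.28 between KO Dox and KO DMSO, by 0.55 between WT Dox and WT DMSO and by -0.92 between KO DMSO and WT DMSO. Each of these had p = 0.1 in an exact two-sided permutation test, the smallest that 3 against 3 libraries allow.

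The ratio of Slc38a1 to Slc38a2, the related sodium-coupled transporters, was 0.561, 0.547 and 0.566 in KO Dox, 0.624, 0.603 and 0.598 in KO DMSO, 0.211, 0.213 and 0.215 in WT Dox and 0.141, 0.148 and 0.144 in WT DMSO. KO libraries all stood above WT libraries, with a log2 difference of 2.08 between KO DMSO and WT DMSO and of 1.39 between KO Dox and WT Dox. Between Dox and DMSO the log2 ratio differed by -0.12 in KO cells and by 0.56 in WT cells. Again p was 0.1 in each exact permutation test, as the design allows no lower value.

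**Figure D5:**
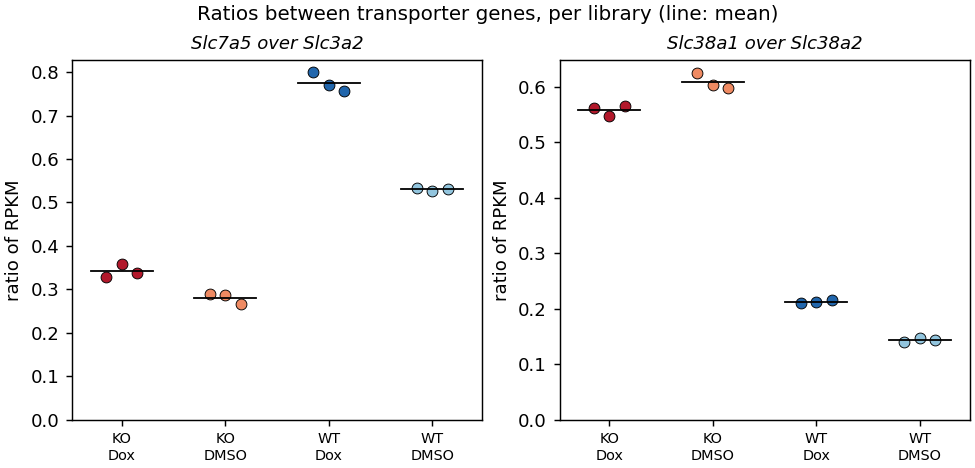
Ratio of RPKM of Slc7a5 to Slc3a2 (left) and of Slc38a1 to Slc38a2 (right) in every library, with a line at the mean of each group. The Slc7a5 ratio is 0.756 to 0.801 in WT Dox and 0.267 to 0.289 in KO DMSO, and the Slc38a1 ratio is highest in KO DMSO.

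Genes whose log2 CPM followed that of a member most closely were sought by Pearson's r over the 12 libraries, among 9326 other genes. The libraries share 4 groups, so r mostly describes likeness of the 4 group means, and it is given with no test. For Asns the closest were Wars, Nars and Cars, which charge tRNAs with tryptophan, asparagine and cysteine, with r of 0.998, 0.998 and 0.994, and Atf4 and Trib3 with r of 0.997 and 0.994. Slc7a5 and Slc6a9 shared Aldh18a1, Mthfd2 and Gars among their closest 5. Slc3a2 lay closest to Cth, the cysteine-making cystathionine gamma-lyase, with r of 0.998, and Slc7a1 to Yars, the tyrosyl-tRNA synthetase gene, with r of 0.998. The closest 5 also held Sertad4 for Slc7a5, Tbc1d31 for Slc6a9, Hspa9 and Eif1ad for Slc3a2, and Tcea1 and Adpgk for Slc7a1.

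Atf4 itself had 260.1 to 267 CPM in KO Dox, 236 to 247 in KO DMSO, 624 to 643 in WT Dox and 342 to 354 in WT DMSO. Its log2 fold change with doxycycline was 0.12 ± 0.0231 in KO cells and 0.88 ± 0.0225 in WT cells, with an interaction of -0.76 ± 0.0322 (SE, n = 3 per group; adjusted p = 8.8e-15, edgeR). Slc1a4 lay closest to Wars, with r of 0.996, and Nexn and Vapb were also among its closest 5. Slc1a5 lay closest to AU020206, Mical2 and Mars, with r of 0.998, 0.997 and 0.997. The closest to Slc38a2 were Rad21, a cohesin subunit gene, and Hjurp, a centromere chaperone gene, both with r of 0.999, and the closest to Slc38a1 was Gak, a clathrin-uncoating kinase gene, with r of 0.994.

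Among 22 measured genes of 34 on a list of other amino acid transporters, doxycycline raised 3 and lowered 7 in WT cells and 12 did not pass, with a median log2 fold change of -0.10 beside -0.02 over all genes. Of all genes 23.9% were called higher and 29.2% lower there. Slc7a11, the cystine exchanger that also pairs with Slc3a2, rose by 1.27 ± 0.0637 (SE, n = 3 and 3), and Slc38a7, a lysosomal glutamine transporter gene, by 0.28 ± 0.0292. Slc6a17, a transporter gene best known from synaptic vesicles, was at -0.76 ± 0.0447. Slc6a6, which carries taurine, was at 0.05 ± 0.0222 and did not pass. In KO cells 5 of the 22 rose and 3 fell, with Slc7a11 at 0.42 ± 0.0966, and in the interaction 2 were lower and 4 higher, with Slc7a11 at -0.85 ± 0.117 and Slc6a17 at 0.97 ± 0.0849. The shares over all genes were 11.6% higher and 10.1% lower in KO cells, and 14.3% lower and 18.2% higher in the interaction.

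With DMSO 8 of these 22 transporters were lower and 10 higher in KO than in WT cells, close to the 44.3% lower and 45.1% higher over all genes, with a median of 0.12 beside 0.02. Slc1a3, of the SLC1 family like Slc1a4 and Slc1a5, was at -5.17 ± 0.0543 (SE, n = 3 and 3), further below WT than any of the 9 genes. Slc6a6 was at -1.83 ± 0.0239, Slc6a17 at -2.65 ± 0.0555 and Ctns, the lysosomal cystine exporter gene, at 1.92 ± 0.0422. Slc7a6, another light chain partner of Slc3a2, was at -0.04 ± 0.0258 and did not pass.

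Enzymes of aspartate, glutamate, glutamine, proline, arginine and branched-chain amino acids were followed in 20 measured genes of 22. The list also held the asparaginyl-tRNA synthetase genes Nars and Nars2. Nars is counted among those raised in WT cells (0.78 ± 0.0214) and lower in the interaction (-0.67 ± 0.0304). In WT cells doxycycline raised 11 and lowered 4, with a median of 0.10 beside -0.02 over all genes. Of all genes 23.9% were called higher and 29.2% lower there. Pycr1 and Aldh18a1, which make proline, rose by 1.21 ± 0.0366 and 0.88 ± 0.0223, and Gpt2, a mitochondrial alanine aminotransferase gene, by 1.14 ± 0.0266 (SE, n = 3 and 3). In KO cells 8 rose and none fell, with Pycr1 at 0.58 ± 0.0699 and Aldh18a1 at 0.28 ± 0.0245, and in the interaction 9 were lower and 2 higher, with Gpt2 at -0.97 ± 0.0383. The shares over all genes were 11.6% higher and 10.1% lower in KO cells, and 14.3% lower and 18.2% higher in the interaction. Got2, which interconverts aspartate and glutamate in mitochondria, did not pass in WT cells (0.02 ± 0.0222) or in KO cells (-0.01 ± 0.0220).

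With DMSO 13 of these 20 enzymes were lower and 5 higher in KO than in WT cells, with a median of -0.34 beside 0.02 over all genes. Of all genes 44.3% were called lower and 45.1% higher there. Ass1, which uses aspartate and citrulline on the way to arginine, was at -2.73 ± 0.0293, and Bcat1, a branched-chain aminotransferase gene, at -2.62 ± 0.0324 (SE, n = 3 and 3). Got1, the cytosolic aspartate aminotransferase gene, was at 1.28 ± 0.0255.

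On a list of ATF4 and the relay of the integrated stress response, 17 of 23 measured genes rose and 3 fell with doxycycline in WT cells, with a median of 0.78 beside -0.02 over all genes. In KO cells 12 rose and 2 fell, with a median of 0.12 beside 0.00. In the interaction 18 were lower and 2 higher, with a median of -0.56 beside 0.01. The shares over all genes were 23.9% higher and 29.2% lower in WT cells, and 11.6% higher and 10.1% lower in KO cells. For the interaction they were 14.3% lower and 18.2% higher. Trib3, Chac1, Cth and Sesn2, an inhibitor of mTORC1 signalling, were at -2.64 ± 0.0842, -2.24 ± 0.0616, -1.54 ± 0.0628 and -1.30 ± 0.0458 in the interaction (SE, n = 3 per group). Each was a larger negative value than that of any of the 9 genes. Eif2ak1 at 0.02 ± 0.0308 and Cebpb at 0.16 ± 0.0899 did not pass in the interaction. Eif2ak4 at 0.00 ± 0.0244 and Eif2ak3 at -0.04 ± 0.0350 did not pass for doxycycline in WT cells. With DMSO 14 of the 23 were lower and 9 higher in KO than in WT cells, beside 44.3% and 45.1% of all genes. The median was -0.64 beside 0.02, with Atf3 at 4.84 ± 0.0448 and Phgdh at -2.00 ± 0.0252.

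Of 19 measured genes that sense amino acids at the lysosome, among 23 listed, 5 rose and 5 fell with doxycycline in WT cells, with a median of 0.03 beside -0.02 over all genes. These counts were close to the shares over all genes, 23.9% higher and 29.2% lower. Rheb, the GTPase that activates mTORC1, rose by 0.34 ± 0.0259, and Sesn1 and Sesn3, relatives of Sesn2, were at -0.42 ± 0.0310 and -0.31 ± 0.0308 (SE, n = 3 and 3). In KO cells 3 rose and 1 fell, with Rheb at 0.14 ± 0.0260, and in the interaction 4 were lower and 2 higher, with Sesn3 at 0.41 ± 0.0451. The shares over all genes were 11.6% higher and 10.1% lower in KO cells, and 14.3% lower and 18.2% higher in the interaction. Rptor, the mTORC1 scaffold gene, was at 0.02 ± 0.0243 in KO cells and 0.00 ± 0.0249 in WT cells and passed in neither.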

How the data were processed

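Polyadenylated RNA of 12 libraries was sequenced. The authors deposited raw read counts per gene, 1 column per library. STAR 2.6.0a, HTSeq 0.10.0 and build GRCm38.p6 are named, per the submitters' processing notes. The sources used here give neither their roles nor the strand of counting. Rows of unmapped (1.85 to 7.63% of a library), multimapping (5.41 to 6.57%), ambiguous (4.86 to 5.29%) and featureless (4.05 to 5.01%) reads stayed out of library sizes and tests.

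All libraries entered 1 edgeR 4.0.16 fit of 4 group means (R 4.3.3, TMM scaling, robust quasi-likelihood F test), whose low-count filter removed no gene. Calls needed an adjusted p (Benjamini-Hochberg, 12637 genes) below 0.05. CPM use TMM-scaled library sizes. The SE is the absolute log2 fold change over the square root of F, and the 95% interval is 1.96 SE to each side. Exon lengths and positions came from GENCODE M21 (GRCm38), which held 12634 of the identifiers. The fit was tested on simulated data. Ratios were compared with exact permutation tests (SciPy).

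The members and lists were chosen with earlier results of these data known. The members are all named. From each other list up to 4 called genes with the smallest p and up to 2 that did not pass may be named, and for likeness the 5 genes with the highest r to each member, with a mean log2 CPM (prior count 2) of at least 3. Replicate numbers were not taken as pairs.

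Alternatives were other scalings and filters, DESeq2 1.42.0, limma-voom 3.58.1, only the compared groups, a replicate block, a term for the libraries low in processed pseudogenes, and each library left out. Leaving out both KO DMSO libraries rich in unmapped reads was chosen after seeing the data.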

Additional observations from a re-analysis of the deposited data

Results flagged for a closer look

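The response to doxycycline differed between KO and WT cells, by the interaction test of edgeR, for 8 of the 9 genes. Over all genes 14.3% were called lower and 18.2% higher in the interaction. The log2 response of KO cells minus that of WT cells was -0.90 for Asns, -0.80 for Slc7a1, -0.82 for Slc7a5, -0.56 for Slc3a2, -0.88 for Slc1a4, -0.65 for Slc1a5, -0.62 for Slc38a1 and -0.90 for Slc6a9. For Slc38a1 the responses were called in opposite directions, -0.18 in KO cells and 0.44 in WT cells.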

How the results depend on the processing

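For the 9 genes 976 of 981 alternative values kept their direction and their side of the threshold, none reversed and no call was lost. The run without the low-count filter is counted among these. It had to repeat the main values, because that filter removed no gene. The other 5 values became calls, of Slc38a2 and Slc1a5, and stand in the report. The number of the 9 genes called stayed within 1.5 times in every alternative run. The number of all genes called moved in 2 cases. With a term for the libraries low in processed pseudogenes, 2850 genes were called for doxycycline in WT cells, against 6706. The 9 members were all called then, with Asns at 1.07 and Slc38a2 at -0.12 (adjusted p = 0.039, edgeR). That term marked every WT DMSO library and KO DMSO replicate 1, so KO DMSO replicate 1 alone set its size. It cannot separate the pseudogene difference in WT cells from doxycycline. Without both KO DMSO libraries rich in unmapped reads, 1089 genes were called for doxycycline in KO cells, against 2740, with Slc7a5 at 0.39; the lone KO DMSO library is then assumed to vary like the other groups. With a replicate block 6664 genes were called for doxycycline in WT cells, 2679 in KO cells and 4050 in the interaction, and no call of a member changed. The labels do not say whether replicate numbers pair the libraries. Of 18 same-numbered pairs 1 had a correlation of deviations over 0.1, and 5 of 12 libraries matched best with their own number. With 3 libraries per group these values cannot decide whether the numbers pair libraries. Depth limits Slc6a9 most, at 342 to 387 reads per library in KO DMSO.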
